A study of Mus musculus with 16 samples.

Results

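Retinoid metabolism and signaling was examined through 9 genes that carry vitamin A, convert it to retinoic acid, respond to retinoic acid or remove it: Rbp4, Stra6, Rdh10, Aldh1a1, Aldh1a2, Aldh1a3, Crabp1, Rarb and Cyp26b1. They were found by matching the RefSeq transcript identifier of each row of the expression table to a gene symbol. The 9 genes, of 35556 symbols, took up 32 of the 130343 rows, and 14 of the 32 rows held at least 1 count. RNA came from wild-type (WT) male C57BL/6J mice, 4 lean on a normal laboratory diet and 4 obese on a high fat diet with 42% of calories from fat and 0.2% cholesterol. Both diets began at 10 weeks of age and lasted 12 to 14 months. Each mouse gave 1 library of inguinal subcutaneous adipose tissue (SAT), pooled from its left and right depots, and 1 library of mesenteric visceral adipose tissue (VAT), taken from the intact bowel, so that 16 libraries formed 4 groups of 4.

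Retinol travels in blood on a carrier protein, enters cells, and is oxidized first to retinal and then to retinoic acid. Retinoic acid binds nuclear receptors that sit on DNA as pairs and switch target genes, and enzymes of the CYP26 family break it down, so that its level depends on local synthesis and local removal. In adipose tissue the pathway is known for effects on fat cell formation and lipid use, and mesothelium, the cell layer that covers visceral organs and visceral fat, is known as a source of the synthetic enzyme ALDH1A2.

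Total counts per library ran from 4604460 to 11897722 in lean SAT, 10828758 to 16614407 in obese SAT, 1256082 to 15802634 in lean VAT and 2247737 to 11615347 in obese VAT. The shallowest libraries were VAT of lean mouse 1 and obese mouse 1. In the shallowest library 1 count equaled 0.796 CPM (counts scaled by the total of the library), and in the deepest 0.0602 CPM. The tissue labels were checked against marker genes. Adipocyte markers were abundant in both tissues (summed CPM of 6 genes between 15153 and 57983), while 8 mesothelial markers summed to 0.582 to 1.69 CPM in SAT and to 267 to 654 CPM in VAT. Pecam1, a gene that endothelial cells use, was listed at 0 in all 16 libraries although another endothelial gene, Tie1, averaged 121 CPM in lean SAT, so a low count in this table is not read as low expression.

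Retinoic acid receptors bind paired copies of a short core element (A or G, G, G or T, T, C, A) in direct repeat, and such a pair in its own promoter is a textbook feature of Rarb. RefSeq promoter windows (250 bases before the start to 50 after it) were at hand for 7 of the 9 genes. A direct repeat spaced by 5, 2 or 1 bases, on either strand, was found for 1 of the 7, Rarb. Among 60 other retinoid pathway genes it was found for 2 of the 44 with a window. Of all 32851 promoter windows, 193 held a repeat of any of these spacings (0.588%). Both Rarb and Cyp26a1, a retinoic acid breakdown enzyme, held the repeat spaced by 5 bases, which 32 of 32851 promoter windows held (0.0974%). The windows are printed because they show the element through which the pathway reads its own product, with the repeat in capitals and 6 bases on either side. The Rarb element lies at chr14:5894234-5894250 (GRCm39, plus strand), 53 to 37 bases before the start, and the Cyp26a1 element at chr19:37686224-37686240 (GRCm39, the repeat itself on the minus strand, printed on the plus strand), 32 to 16 bases before the start.
Rarb: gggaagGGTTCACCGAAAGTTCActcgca
Cyp26a1: taaagaTGAACTTTGGGTGAACTaatttg
The promoter windows of Aldh1a2 and Cyp26b1, the members that differed most between tissues, held no direct repeat and 0 core elements, where 43.7% of all windows held at least 1 core element.

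Of the 9 genes, 7 passed the filter on low values (CPM above 1 in at least 3 libraries) and were tested. In VAT from obese mice relative to lean mice, Aldh1a2 was upregulated and Aldh1a1 downregulated, 2 of 7 genes tested, where 12.2% of all 12185 features were called. In SAT, Cyp26b1 was upregulated, 1 of 7, where 11.6% of all features were called. Between tissues, Aldh1a2 and Cyp26b1 were higher in VAT in lean mice (2 of 7, with 15.9% of all features called) and in obese mice (2 of 7, with 31.4% called). The response to diet differed between VAT and SAT for Aldh1a2 (1 of 7, with 2.47% called). The median log2 fold change of the 7 genes with diet was -0.45 in SAT and 0.57 in VAT, against -0.00024 and -0.016 over all features. All calls are by edgeR's quasi-likelihood test at a Benjamini-Hochberg adjusted p below 0.05. The 2 libraries of a mouse are separate tissues, and each group holds 4 mice.

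**Figure D1:**
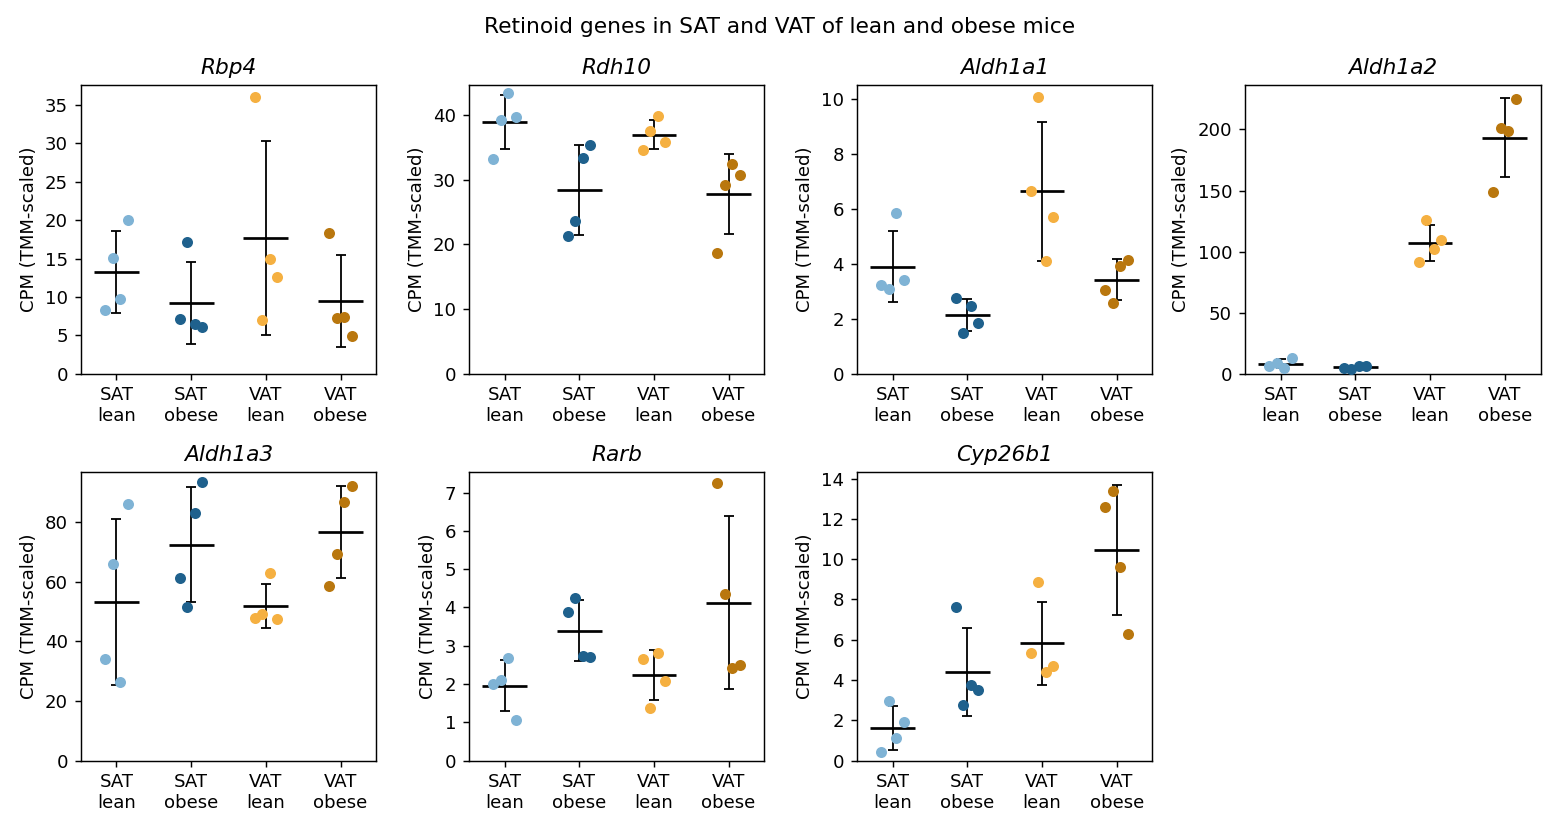
Level of each of the 7 tested retinoid genes in CPM scaled by TMM factors (y axis, linear, from 0) in the 4 groups; points are single libraries, the horizontal line is the mean of 4 and the error bar its SD. Aldh1a2 lies between 4.24 and 13.0 CPM in all 8 SAT libraries and between 91.2 and 225 CPM in all 8 VAT libraries, and the 4 obese VAT libraries lie above the 4 lean ones.

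Rbp4 encodes the blood carrier of retinol, which liver and adipocytes secrete. Its level was 8.31, 15.04, 9.75 and 20.04 CPM in SAT from lean mice 1 to 4, and 7.09, 17.2, 6.43 and 6.12 CPM in SAT from obese mice 1 to 4. VAT from the same lean mice held 35.96, 7.03, 14.97 and 12.6 CPM, and that from the obese mice 18.3, 7.26, 7.37 and 4.98 CPM. The groups overlapped in both tissues, and the highest value of each of the 4 groups was in its shallowest library. The log2 fold change with diet was -0.51 (SE 0.43, adjusted p = 0.485) in SAT and -0.85 (SE 0.46, adjusted p = 0.263) in VAT, and the tissues differed by 0.18 (SE 0.39) in lean and -0.05 (SE 0.39) in obese mice, so that no call was made for the carrier.

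The counts behind Rbp4 hardly followed the depth of the libraries. VAT of lean mouse 1 held 54 Rbp4 counts of 1256082, while VAT of lean mouse 2 held 118 counts of 15802634. Within groups, the slope of log2 count on log2 total was 0.274 for Rbp4, against a median of 0.954 over 6264 features with at least 5 counts in every library, and 60 of the 6264 features had a slope as low or lower. The slopes of Rdh10, Aldh1a1, Aldh1a2, Aldh1a3 and Cyp26b1 were between 0.843 and 1.07. The part of depth in the Rbp4 values was not tested. Row NM_011255 held 94.3% of the Rbp4 counts and row NM_001159487 the rest.

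**Figure D2:**
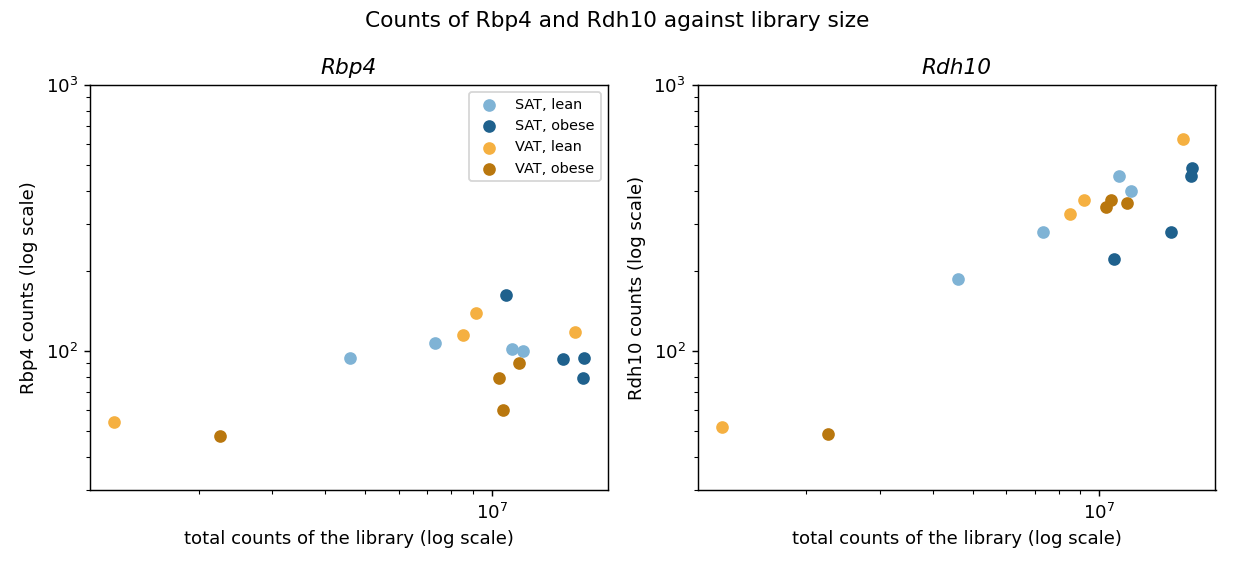
Raw counts of Rbp4 (left) and Rdh10 (right) against the total counts of each of the 16 libraries, both axes on a log scale, colored by group. Rdh10 rises from 49 to 629 counts with library size, while Rbp4 stays between 48 and 162.

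Stra6 encodes the membrane receptor that takes retinol from its carrier. Its 11 rows held 1 count in all, in VAT of lean mouse 2. Crabp1 encodes a cytoplasmic binding protein of retinoic acid, and its 2 rows held 5 counts, 4 in SAT of lean mouse 1 and 1 in SAT of lean mouse 2. The other 15 and 14 libraries were at 0, which allows between 0.181 and 2.39 CPM depending on depth (3 counts over the library total, with no TMM factor), for counting error only. Neither gene was tested. How reads shared by several transcripts of a gene were counted is not stated, and the low counts of these genes are not read as absence.

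Rdh10 encodes the enzyme of the first oxidation step, from retinol to retinal. SAT from lean mice held 33.2, 39.2, 43.4 and 39.6 CPM and SAT from obese mice 21.3, 23.5, 33.4 and 35.3 CPM. VAT held 34.6, 37.5, 39.8 and 35.8 CPM in lean and 18.7, 29.1, 32.4 and 30.8 CPM in obese mice. All 4 obese VAT libraries were below all 4 lean ones, and in SAT the groups overlapped. The log2 fold change did not pass the test in VAT (-0.39, SE 0.17, adjusted p = 0.160) or in SAT (-0.45, SE 0.17, adjusted p = 0.0905). Levels in the 2 tissues were close in lean mice (log2 difference -0.08, SE 0.13) and in obese mice (-0.02, SE 0.13).

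Without overlap between lean and obese libraries were Rdh10 and Aldh1a2 in VAT (2 of 7, where 14.3% of all features did not overlap) and Aldh1a1 and Rarb in SAT (2 of 7, where 17.3% did not overlap). Between tissues, the libraries of Aldh1a2 and Cyp26b1 did not overlap in lean mice (2 of 7, where 18.1% did not overlap), nor those of Aldh1a2 in obese mice (1 of 7, where 30.2% did not overlap).

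Aldh1a2, on chromosome 9 (chr9:71122630-71203527, GRCm39, plus strand), encodes the retinal dehydrogenase that makes retinoic acid in the embryo and in mesothelium. Its single row, NM_009022, held 12438 counts. SAT from lean mice contained 6.48, 8.85, 5.07 and 13.0 CPM and SAT from obese mice 4.65, 4.24, 6.16 and 6.04 CPM. VAT contained 91.2, 126, 102 and 109.5 CPM in lean mice and 149, 201, 199 and 225 CPM in obese mice. No VAT library came near any SAT library, and the obese and lean VAT libraries did not overlap.

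Aldh1a2 was higher in VAT than in SAT by 3.76 on the log2 scale (SE 0.17, 13.6-fold, adjusted p = 2.47e-12) in lean mice and by 5.18 (SE 0.17, 36.3-fold, adjusted p = 1.85e-14) in obese mice. It was higher in VAT within each of the 8 mice, by 3.05 to 4.28 in lean and 4.94 to 5.50 in obese mice. Since the tissues were sequenced whole, fewer cells of a type and less RNA per cell cannot be told apart. With diet, Aldh1a2 rose in VAT by 0.85 (SE 0.18, 1.80-fold, adjusted p = 0.00365), while in SAT its log2 fold change was -0.58 (SE 0.23, adjusted p = 0.101). The difference between these 2 responses was 1.42 (SE 0.23, adjusted p = 0.00155). All 4 calls on Aldh1a2 held in each alternative tried, with an adjusted p of 0.0204 at most for diet in VAT and 0.0180 at most for the difference.

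**Figure D3:**
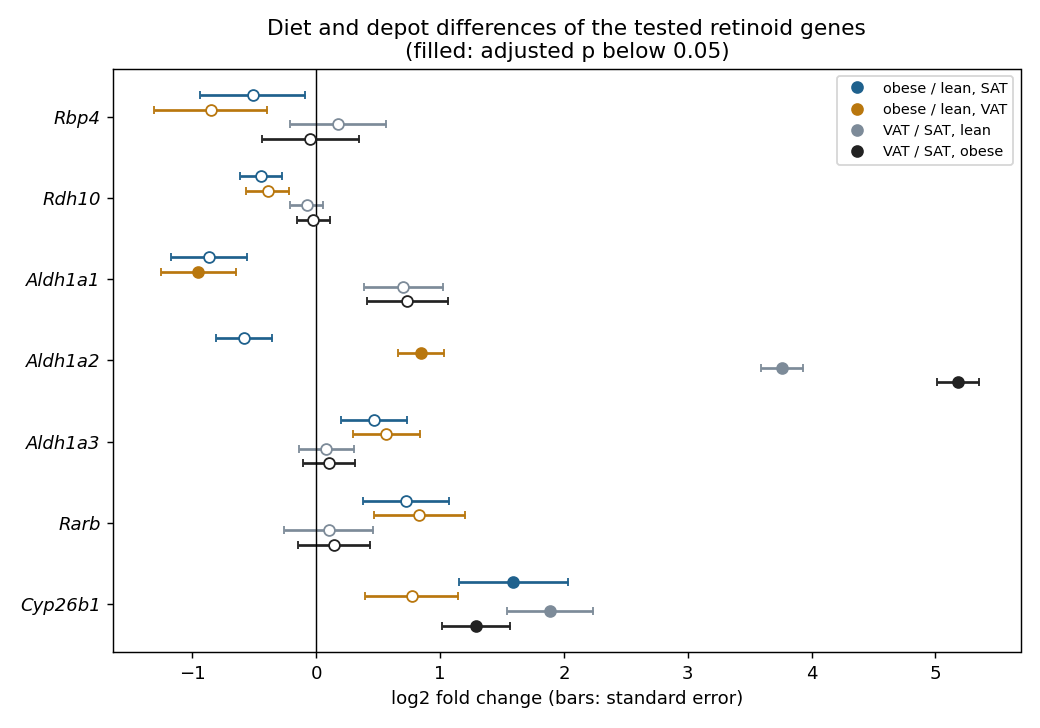
Log2 fold change (x axis) of the 7 tested genes for obese relative to lean mice in SAT and in VAT, and for VAT relative to SAT in lean and in obese mice; bars are standard errors and filled points have an adjusted p below 0.05. Aldh1a2 stands out to the right in both comparisons of tissues, at 3.76 and 5.18, and Cyp26b1 follows at 1.89 and 1.29.

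Mesothelial markers moved with the tissue difference of Aldh1a2. All 8 of the 8 mesothelial genes listed (Msln, Upk3b, Upk1b, Lrrn4, Wt1, Krt19, Krt8 and Krt18) were called higher in VAT, and Msln, Upk1b and Wt1 had 0 counts in the 8 SAT libraries. B and T lymphocyte markers also moved with it, with sums of 6 genes between 3.54 and 8.55 CPM in SAT, 30.1 to 224 CPM in lean VAT and 167 to 298 CPM in obese VAT. Macrophage markers were higher in VAT too (4 of 5 tested in lean and 5 of 5 in obese mice), with sums of 1308 to 1862 CPM in lean SAT against 2307 to 3025 CPM in lean VAT and of 2082 to 2981 against 4892 to 7013 CPM in obese mice. Of 6 adipocyte markers, Fabp4 and Lep were lower in VAT of lean mice and 0 were higher, while in obese mice 5 were lower (Adipoq, Fabp4, Lep, Lipe and Plin1). The fibroblast and progenitor markers were mixed in both diets, with Col1a1, Dpt and Pi16 lower in VAT, Dcn and Dpp4 higher, and the other 2 of 7 not called. Keratinocyte markers summed to 4.41 CPM or less in each library. Exocrine pancreas markers summed to 0 to 0.753 CPM in SAT, 1.83 to 11.3 CPM in lean VAT and 0 to 4.56 CPM in obese VAT. Of 2 tested, Cpa1 and Pnlip were higher in VAT of lean mice and Pnlip in obese mice. Of 4 tested intestinal markers, Epcam was higher in VAT in both diets, and Krt20 was lower in obese mice. The part of any of these in the tissue difference was not tested.

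With diet, 0 of the 8 mesothelial markers were called in VAT by edgeR (2 at an unadjusted p below 0.05), 0 by DESeq2 (2 unadjusted) and 0 by limma (3 unadjusted), their median log2 fold change was -0.46, and their sum was 267 to 654 CPM (median 549) in lean and 317 to 392 CPM (median 339) in obese VAT. Upk3b gave the largest part of this sum (mean 322 CPM in lean and 212 CPM in obese VAT), followed by Wt1 (101 and 73.7 CPM). These were the 2 genes at an unadjusted p below 0.05 by edgeR. Aldh1a2 per 100 CPM of mesothelial markers was 18.2, 19.2, 38.3 and 18.4 in VAT from lean mice and 42.4, 61.1, 62.9 and 57.4 in VAT from obese mice. The ratio was higher in each of the 4 obese libraries than in any lean one, with means of 23.5 ± 9.86 (SD, n = 4) and 55.9 ± 9.29 (SD, n = 4). This ratio was chosen after both of its parts were seen and is given as a description, with no test. Macrophage markers rose with diet in VAT (5 of 5 tested, summed 2307 to 3025 CPM in lean and 4892 to 7013 CPM in obese mice). Of 5 tested B and T lymphocyte markers, Cd79a and Cd8a were called higher there and 0 lower. The 6 listed summed to 30.1 to 224 CPM (median 108) in lean and 167 to 298 CPM (median 221) in obese VAT. Adipocyte markers fell there in 3 of 6 cases (Adipoq, Lipe and Plin1). The part of mesothelial, macrophage, lymphocyte or adipocyte RNA in the diet response was not tested.

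**Figure D4:**
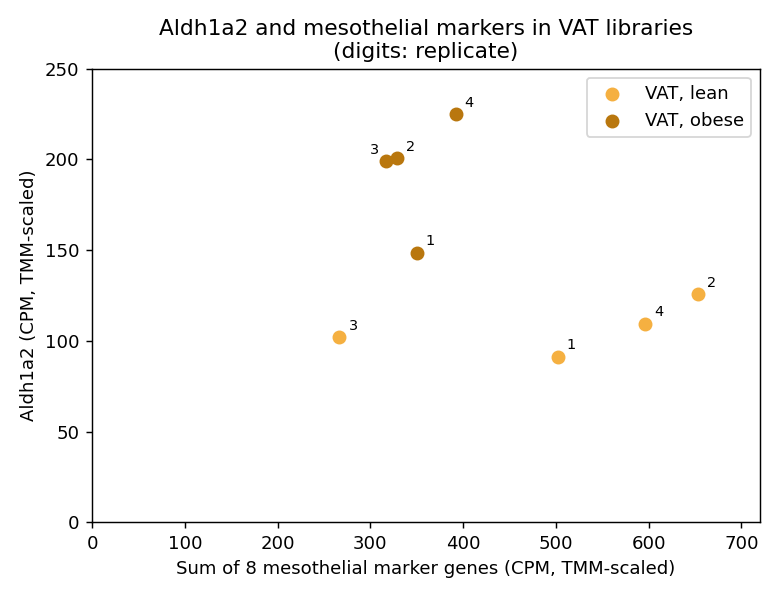
Aldh1a2 (y axis, CPM) against the summed CPM of 8 mesothelial marker genes (x axis) in the 8 VAT libraries, colored by diet, with the replicate number beside each point. The obese libraries lie at 317 to 392 CPM of markers and 149 to 225 CPM of Aldh1a2, above the lean libraries, of which 3 have more marker RNA.

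Aldh1a1, a second retinal dehydrogenase, is known in adipocytes, and lies on chromosome 19 (chr19:20469539-20622825, GRCm39, plus strand) next to its close copy Aldh1a7. SAT held 3.24, 3.09, 5.83 and 3.41 CPM in lean and 2.74, 1.48, 2.46 and 1.86 CPM in obese mice. VAT held 6.66, 10.1, 4.09 and 5.71 CPM in lean and 3.05, 2.58, 3.92 and 4.15 CPM in obese mice. The obese libraries lay below all lean ones in SAT, while in VAT the highest obese library reached just past the lowest lean one. Aldh1a1 fell in VAT by 0.95 on the log2 scale (SE 0.30, adjusted p = 0.0415), and its log2 fold change in SAT was -0.86 (SE 0.31, adjusted p = 0.0730). The VAT call held in 5 of 16 alternatives and was lost without any single mouse except lean mouse 3, with an adjusted p up to 0.325 without lean mouse 2, where the log2 fold change was -0.56. In the other 6 fits without 1 mouse that lost the call the log2 fold change was -0.77 to -1.05. In the same VAT libraries 3 of 6 adipocyte markers fell with diet (Adipoq, Lipe and Plin1). Macrophage markers rose there (5 of 5 tested, summed 2307 to 3025 CPM in lean and 4892 to 7013 CPM in obese mice). Lymphocyte markers Cd79a and Cd8a were also called higher, 2 of 5 tested. Of the 8 mesothelial markers 0 were called. They summed to 267 to 654 CPM (median 549) in lean and 317 to 392 CPM (median 339) in obese VAT. The part of any of these in the Aldh1a1 response was not tested.

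The 2 rows with counts for Aldh1a1 did not behave alike. Row NM_001361503 fell with diet in SAT by 1.54 (SE 0.38, adjusted p = 0.0103 over the 13288 rows tested), whereas row NM_013467 had a log2 fold change of 0.33 (SE 0.46, adjusted p = 0.713). The former held 77.5% of the Aldh1a1 counts in lean SAT, 48.2% in obese SAT, 39.4% in lean VAT and 34.1% in obese VAT. Row NM_013467 was higher in VAT than in SAT in lean mice (1.89, SE 0.45, adjusted p = 0.00492) and obese mice (1.08, SE 0.41, adjusted p = 0.0499). The gene as a whole did not pass the test in either (0.70, adjusted p = 0.154, and 0.74, adjusted p = 0.0941). Without lean mouse 3, the gene passed in lean mice (1.19, adjusted p = 0.0245). These rows rest on 338 and 311 counts over 16 libraries, and reads shared with Aldh1a7 could not be told apart here.

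**Figure D5:**
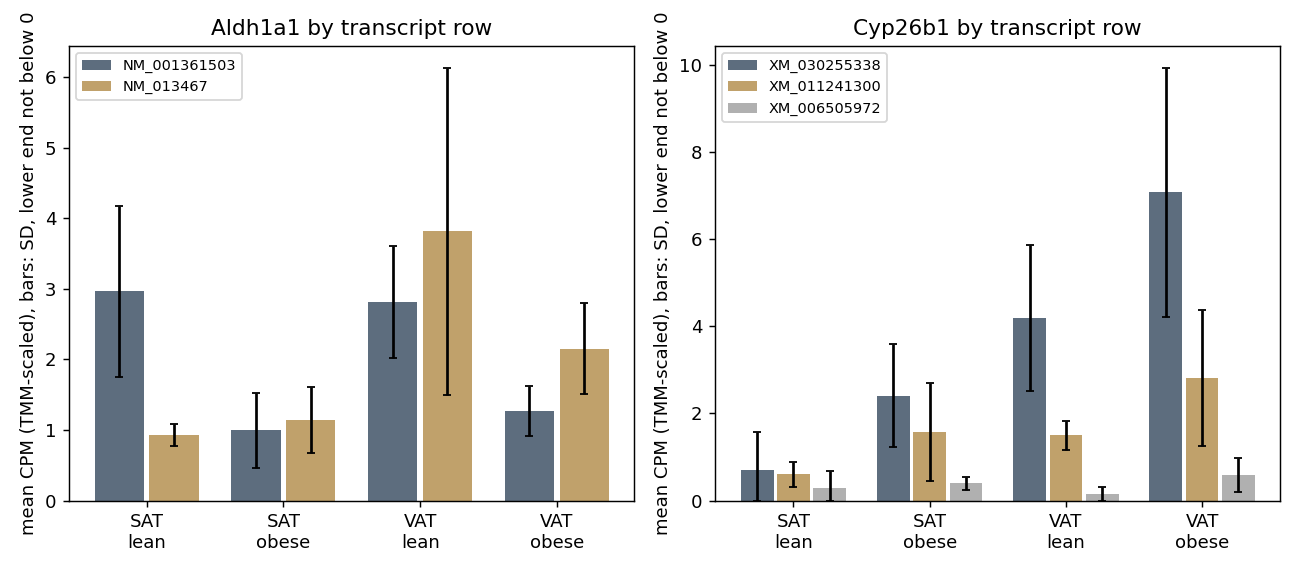
Mean CPM per group of the transcript rows of Aldh1a1 (left) and Cyp26b1 (right), with SD over 4 libraries as error bars (lower ends not drawn below 0). The Aldh1a1 row NM_001361503 is the larger in lean SAT (77.5% of the counts) and the smaller in obese VAT (34.1%), while the largest Cyp26b1 row is XM_030255338 in all 4 groups.

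Aldh1a3 encodes the third retinal dehydrogenase. Its level varied widely in SAT from lean mice, at 34.1, 65.9, 26.5 and 86.1 CPM, and was 61.3, 51.5, 83.2 and 93.5 CPM in SAT from obese mice. VAT held 47.9, 49.3, 62.9 and 47.5 CPM in lean and 58.7, 69.3, 86.9 and 92.2 CPM in obese mice, with overlap between the groups in each tissue. The log2 fold changes with diet were 0.47 (SE 0.26, adjusted p = 0.275) in SAT and 0.57 (SE 0.27, adjusted p = 0.192) in VAT, and those between tissues were 0.08 in lean and 0.10 in obese mice, none of which passed the test. Of the 3 dehydrogenases, only Aldh1a2 was called between tissues by the fit on genes with all 8 mice. Without lean mouse 3, that fit also called Aldh1a1 higher in VAT of lean mice.

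Rarb, the retinoic acid receptor beta whose promoter element is printed above, had counts in 1 of its 4 rows, NM_011243. SAT held 1.99, 2.11, 2.68 and 1.07 CPM in lean and 3.89, 4.24, 2.74 and 2.71 CPM in obese mice. VAT held 2.66, 1.37, 2.80 and 2.08 CPM in lean and 7.24, 4.36, 2.43 and 2.49 CPM in obese mice. The obese SAT libraries were above all lean ones by a narrow margin, while in VAT the groups overlapped. The log2 fold change was 0.72 (SE 0.35, adjusted p = 0.188) in SAT and 0.83 (SE 0.37, adjusted p = 0.157) in VAT, and neither passed the test. Between 4 and 54 counts per library stand behind these values, and obese mouse 1, the highest in VAT, had 19.

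Cyp26b1, on chromosome 6 (chr6:84548396-84570890, GRCm39, minus strand), encodes an enzyme that breaks down retinoic acid. SAT held 0.415, 2.95, 1.15 and 1.92 CPM in lean and 7.62, 2.76, 3.76 and 3.49 CPM in obese mice. VAT held 5.33, 8.88, 4.41 and 4.72 CPM in lean and 12.6, 13.4, 9.61 and 6.31 CPM in obese mice. In SAT 1 lean library exceeded the lowest obese one, and in VAT likewise 1 lean library lay above the lowest obese library. The order of the group means was lean SAT (1.61), obese SAT (4.41), lean VAT (5.83) and obese VAT (10.5).

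Cyp26b1 was higher in VAT than in SAT in lean mice by 1.89 on the log2 scale (SE 0.35, 3.70-fold, adjusted p = 6.19e-04) and in obese mice by 1.29 (SE 0.27, 2.45-fold, adjusted p = 0.00107). The tissue difference had the same direction in each of the 8 mice and was called in 14 of 14 alternatives in each diet. The mesothelial, lymphocyte and macrophage markers were higher in VAT as well. The macrophage sums were 1308 to 1862 CPM in SAT and 2307 to 3025 CPM in VAT of lean mice, and 2082 to 2981 and 4892 to 7013 CPM in obese mice. The part of these markers was not tested. With diet, Cyp26b1 rose in SAT by 1.59 (SE 0.44, 3.01-fold, adjusted p = 0.0217), and its log2 fold change in VAT was 0.77 (SE 0.38, adjusted p = 0.207). The responses in the 2 tissues were not shown to differ (-0.60, SE 0.45, adjusted p = 0.582). The SAT call rested on few counts (5 to 21 per lean library) and was lost in 3 fits without 1 mouse. The log2 fold change was 1.19 without lean mouse 1 (adjusted p = 0.0799) and 1.47 without lean mouse 3 (0.0749). It was 1.17 without obese mouse 1 (0.105). Without both lean mouse 1 and obese mouse 1 the log2 fold change was 0.79 (adjusted p = 0.243). Macrophage markers moved with it (4 of 5 tested rose in SAT, summed 1308 to 1862 CPM in lean and 2082 to 2981 CPM in obese mice), and their part was not tested.

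By row, XM_030255338 held 62.2% of the Cyp26b1 counts, and it rose in SAT with diet by 1.84 (SE 0.57, adjusted p = 0.0411). Row XM_011241300 had a log2 fold change of 1.55 (SE 0.56, adjusted p = 0.0759) there. The tissue difference of XM_030255338 was 2.58 (SE 0.45, adjusted p = 2.31e-04) in lean and 1.60 (SE 0.33, adjusted p = 6.62e-04) in obese mice. That of XM_011241300 did not pass the test in lean (1.34, SE 0.60, adjusted p = 0.148) or obese mice (1.06, SE 0.46, adjusted p = 0.0871).

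Among 60 other genes of the pathway, 33 were tested. With diet in SAT, 4 rose (Tgm2, Dhrs9, Lrat and Aldh1a7) and 2 fell (Ces1d and Lpl), where 6.35% of all features rose and 5.25% fell. The Lpl call in SAT (log2 fold change -0.40, SE 0.11, adjusted p = 0.0242) was lost in at least 7 of 15 alternatives, those with no filter and without lean mouse 2, 3 or 4 or obese mouse 1, 2 or 3. Ces1d was called in 15 of 15. In VAT 0 rose and 6 fell (Ces1d, Lpl, Lipe, Dgat1, Dhrs4 and Ncor1) by edgeR, where 6.89% of all features rose and 5.28% fell. At an unadjusted p below 0.05, 3 genes were higher in VAT (Dhrs9, Lrat and Tgm2), and DESeq2 and limma each called 1, Dhrs9. The median log2 fold change of the list was -0.04 in SAT and -0.33 in VAT. Dhrs9, a dehydrogenase that can act on retinol, rose in SAT from 1.46 ± 0.861 to 5.92 ± 1.54 CPM (SD, n = 4 each), a log2 fold change of 2.18 (SE 0.41, adjusted p = 0.00121), with no overlap. Lrat, which esterifies retinol for storage, was also higher in SAT from obese mice, at 0.191 to 0.499 CPM in lean and 1.70 to 3.42 CPM in obese mice (log2 fold change 2.62, SE 0.53, adjusted p = 0.00262). The lean value rests on 2 to 6 counts per library. Tgm2, a transglutaminase known as a retinoic acid target, rose there from 512 ± 25.8 to 854 ± 137 CPM (log2 fold change 0.74, SE 0.11, adjusted p = 1.76e-04). Macrophage markers rose in the same SAT libraries (4 of 5 tested, summed 1308 to 1862 CPM in lean and 2082 to 2981 CPM in obese mice), and their part in these rises was not tested. Of the 4 tested genes of a hand-made list of other known retinoic acid targets (Tgm2, Hoxa5, Rarres1 and Rarres2), Tgm2 passed in SAT and 0 passed in VAT by edgeR, DESeq2 or limma, with Tgm2 at an unadjusted p below 0.05. That list does not hold Rarb, Cyp26b1 or Lrat, which are known to respond to retinoic acid too, and of these Cyp26b1 and Lrat were called higher in SAT.

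Of the 8 genes listed for retinoid storage and carotenoid cleavage, 5 were tested, all of them enzymes of ester synthesis or hydrolysis (Lrat, Dgat1, Lipe, Pnpla2 and Ces1d), and Bco1, Bco2 and Rpe65 did not pass the filter on low counts. Of the 5, 3 fell in VAT with diet (Ces1d, Lipe and Dgat1), where 5.28% of all features fell. Lrat had a log2 fold change of 1.14 there (SE 0.50, adjusted p = 0.155) and did not pass the test. Ces1d, a carboxylesterase, fell by 1.15 (SE 0.18, adjusted p = 2.20e-04) and Lipe, hormone-sensitive lipase, fell by 0.70 (SE 0.14, adjusted p = 0.00203). Lpl, lipoprotein lipase, listed among the carriers, fell by 0.63 (SE 0.11, adjusted p = 8.62e-04). Lipe is also 1 of the 6 adipocyte markers, of which 3 fell in VAT.

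Between tissues, 6 genes of the list were higher in VAT and 5 lower in lean mice, where 8.67% of all features were higher and 7.22% lower. The number lower fell from 5 to 2 without lean mouse 1 or lean mouse 3 and to 3 without lean mouse 2 or obese mouse 3. In obese mice 5 were higher and 11 lower, where 16.3% were higher and 15.1% lower, and the number lower fell from 11 to 7 without obese mouse 1. Cyp2s1, a cytochrome that can oxidize retinoic acid, was 0.915 ± 0.530 CPM in lean SAT and 12.6 ± 4.69 CPM in lean VAT (log2 difference 3.82, SE 0.30, adjusted p = 8.24e-09). In obese mice it was 0.746 ± 0.275 and 15.7 ± 2.21 CPM (4.35, SE 0.27, adjusted p = 2.51e-10). Lrp2, an endocytic receptor that takes up retinol with its carrier, had 4 counts in the 4 lean SAT libraries and 16 in the obese ones, against 24.1 to 55.1 CPM in lean and 22.8 to 39.04 CPM in obese VAT. Dhrs9 was higher in VAT from lean mice by 3.37 (SE 0.30, adjusted p = 5.21e-08). The mesothelial markers (0.582 to 1.69 CPM in SAT, 267 to 654 CPM in VAT), the lymphocyte markers (3.54 to 8.55 CPM in SAT, 30.1 to 298 CPM in VAT) and the macrophage markers given for Aldh1a2 moved with these differences too, and their part was not tested. The response to diet was lower in VAT than in SAT for 3 genes of the list (Aldh1a7, Lipe and Dgat1) and higher for 0, where 1.62% of all features were lower and 0.854% higher. The number lower fell from 3 to 0 without lean mouse 3, lean mouse 4 or obese mouse 4 and to 1 without lean mouse 2 or obese mouse 1.

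The genes whose log2 CPM across the 16 libraries was most like that of Aldh1a2 were Ccl21a (Pearson r = 0.986), Cyp2s1 (0.985) and C1ra (0.977). Within the 8 SAT libraries the same r was 0.766, 0.705 and 0.676, and within the 8 VAT libraries 0.442, 0.636 and 0.763. For Cyp26b1 they included Tlcd2 (0.883, with 0.857 within SAT and 0.452 within VAT) and Gm52186 (0.874, with 0.731 and 0.782). For Rbp4 they were Rex1bd (0.912), Mtarc2 (0.882) and Pgm1 (0.874), and for Rdh10 1110020A21Rik (0.919), Etfa (0.914) and Rida (0.905). Aldh1a1 was closest to Chrdl1 (0.831), Aldh1a3 to Sfrp4 (0.818) and Rarb to Sf3b4 (0.844). The libraries share depth and tissue, and these values are descriptions.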

How the data were processed

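RNA was measured in SAT and VAT of 8 mice by poly-A selected, directional, paired-end sequencing. Per the labels and the study's methods, the authors trimmed reads with Trim Galore, aligned them to GRCm39 with HISAT2 2.2.0 and counted them with HTSeq 0.13.5. How reads shared by transcripts were treated, and the strand setting, are not given in the sources used here. The deposited table holds raw counts and CPM for each of 130343 rows. The deposited CPM equal the counts divided by the column total, with no TMM factor. All 32 value columns were read, and none was left out.

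Rows were matched to symbols by RefSeq identifier (106821 of 130343 rows, 82.0%), so later transcripts of a gene may be missing from its sum. Counts were summed per symbol, and features with CPM above 1 in at least 3 of 16 libraries were kept (12185). CPM levels printed here carry TMM factors computed from the counts, while the CPM of 1 count and the limits for 0 counts are scaled by the library total alone. edgeR 4.0.16 in R 4.3.3 (quasi-likelihood F-test, legacy=TRUE) gave log2 fold changes with standard errors, and p-values were adjusted by Benjamini-Hochberg over all features. Diets were compared with 1 mean per group over all 16 libraries, and tissues and the difference of responses with the mouse as a block. The 2 tissues of a mouse share its letter and number in the labels. Deviations from group means correlated at -0.0014 to 0.175 (median 0.076) in the same mouse. Between different mice of a diet they correlated at -0.155 to 0.117 (median -0.037), so the 2 ranges overlapped. Rows were also fitted singly (13288 tested). The alternatives were RLE size factors, no filter, DESeq2 1.42.0, limma 3.58.1 with voom, 1 tissue only, other blocks, rows fitted singly, and each mouse left out. Leaving out both mice with the shallowest VAT libraries was added after seeing the data. A library without a count was given a limit of 3 counts (95% interval, counting error only).

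No 2 libraries of a group were copies of each other (lowest chi-square per degree of freedom 8.75). RefSeq promoters, from a table of GRCm38.p6, were placed on GRCm39 by exact match, and gene positions are from GENCODE vM39. The pathway genes and cell markers were listed by hand. The members and lists were chosen with earlier results of these data known. All 9 members are named. Of the pathway list, genes called in at least 1 comparison may be named, with full values for at most the 3 of smallest adjusted p per comparison, and the 3 genes most alike per member are taken by Pearson r. A few genes that these rules would name are not reported here. Lrat, shown with its fold change, is not among those 3 and was chosen after its values were seen, as were the uncalled genes named to show what 2 sublists hold.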

Additional observations from a re-analysis of the deposited data

Results flagged for a closer look

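A library far from the other 3 of its group was seen for 3 of the 28 groups of members examined, where chance gives about 1 in 20. Rbp4 was 17.2 CPM in SAT from obese mouse 2, the shallowest library of its group. Aldh1a1 was 5.83 CPM in SAT from lean mouse 3. Aldh1a3 was 62.9 CPM in VAT from lean mouse 3. No cause was tested for these.

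The diet response differed between VAT and SAT for 1 of the 7 members tested and for 3 of the 33 pathway genes tested, where 2.47% of all features were called. The log2 difference was 1.42 for Aldh1a2 (SE 0.23, adjusted p = 0.00155, edgeR), with VAT the higher. For Aldh1a7, which neighbors Aldh1a1, it was -0.66 (SE 0.15, adjusted p = 0.0221), with 505 ± 91.5 CPM in lean and 799 ± 41.6 CPM in obese SAT (SD, n = 4 each) and 355 ± 52.2 and 358 ± 49.8 CPM in VAT. For Dgat1 it was -0.90 (SE 0.22, adjusted p = 0.0333) and for Lipe -0.67 (SE 0.16, adjusted p = 0.0251). The calls on Aldh1a7, Lipe and Dgat1 held in 6, 8 and 5 of 13 alternatives, that on Aldh1a2 in 14 of 14.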

How the results depend on the processing

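The tissue differences of Aldh1a2 in lean and obese mice, its rise in VAT and the difference of its responses, and the tissue difference of Cyp26b1, kept their direction and their call in each alternative run. With diet, the count of the 9 genes called in SAT was 1 higher and 0 lower, and in VAT 1 higher and 1 lower.

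The replicate block took only the number a mouse shares with a mouse of the other diet. With it, 1 of the 9 genes was called lower in SAT (Rdh10), 0 were called lower in VAT, and 1 gene of the pathway list was called higher in VAT. The tissue comparisons pair the 2 tissues of a mouse through the mouse block instead. Without the mouse block, the fit gave -0.00699 for Aldh1a3 in lean mice and -0.088 for Aldh1a1 in the difference of responses. It called 2 pathway genes lower in lean VAT (5 with the mouse block) and 0 lower in the difference (3 with it).

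With no filter, 2 of the 9 genes were higher in SAT, 2 higher and 2 lower in VAT, 1 pathway gene was lower in SAT and 1 higher in VAT, and the difference of responses was -0.00882 for Rdh10, -0.028 for Aldh1a1, -0.044 for Aldh1a3 and -0.023 for Rarb. With the VAT libraries alone, 2 of the 9 were higher (Aldh1a2 and Aldh1a3) and 0 lower. DESeq2 and limma each called 1 pathway gene higher in VAT. With rows fitted singly, 0 of the 9 were lower in VAT, row NM_013467 of Aldh1a1 was 0.33 with diet in SAT and -0.81 in the difference (the other row, NM_001361503, -1.54 and 0.48), and Rdh10 0.0037 between tissues in obese mice. Without both mice with the shallowest VAT libraries, chosen after seeing the data, 0 of the 9 were higher in SAT and 0 lower in VAT, 2 pathway genes were lower in lean VAT and 1 in the difference, Rbp4 was -0.38, Aldh1a3 -0.032 (lean tissue difference), Rdh10 0.015 and Rarb -0.082 (obese tissue difference), and Rarb -0.12 in the difference of responses.

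With each mouse left out in turn, the 9 genes gave 0 to 1 called higher and 0 to 1 lower in SAT and 0 to 1 lower in VAT. Pathway genes gave 1 to 2 lower in SAT, 0 to 1 higher in VAT, 2 to 5 lower in lean VAT, 7 to 11 lower in obese VAT, and 0 to 1 higher and 0 to 3 lower in the difference. The lean tissue difference ran from -0.38 to 0.63 for Rbp4, -0.33 to 0.41 for Aldh1a3 and -0.13 to 0.38 for Rarb, and the obese one from -0.43 to 0.43 for Rbp4, -0.11 to 0.065 for Rdh10 and -0.042 to 0.28 for Rarb. The difference of responses ran from -0.64 to 0.33 for Rbp4, -0.027 to 0.15 for Rdh10, -0.43 to 0.47 for Aldh1a1, -0.28 to 0.46 for Aldh1a3 and -0.21 to 0.30 for Rarb. None of these reversed values was called, and the cause was not tested.

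Low counts limit Rarb, Aldh1a1 and Cyp26b1, which had 4 to 169 counts per library, Lrat, which had 0 to 50, and Stra6 and Crabp1, which had 0 to 4. The members with 1 row each, Rdh10, Aldh1a2 and Aldh1a3, held 5270, 12438 and 10246 counts in all. Those with 2 to 11 rows held from 1 count (Stra6) to 1534 counts (Rbp4). The part of depth and of reads shared by several transcripts in these counts was not tested.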
